A study of Mus musculus with 36 samples.

Results

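The 86 genes described here code for subunits of the oxidative phosphorylation system and for a few proteins named after them. They were taken from a table of 12652 genes by symbol, as all names that begin with Nduf followed by a, b, c, s or v, with Uqcr, with Cox4 to Cox8 or with Atp5, together with Sdha, Sdhb, Sdhc and Sdhd. By symbol they fall into 36 subunits of complex I, 4 of complex II, 8 of complex III, 12 of complex IV and 15 of complex V, the ATP synthase. The names also took in 8 assembly factors of complex I (Ndufaf1 to Ndufaf8), which help to build the complex and are not part of it, and 3 genes kept apart. These were Ndufa4, now counted with complex IV, Cox7a2l, studied for a part in respiratory supercomplexes, and Atp5s, which is no subunit of the ATP synthase. The 26 symbols written for subunits and RNAs encoded by mitochondrial DNA were not analysed here, so every value below is that of a nuclear gene.

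The samples were intestinal organoids, epithelial cultures that grow from single intestinal cells, made from 2 male wild type C57BL/6 littermates aged 8 weeks. Cells were seeded at 50000 per well and grown for 3 days with Wnt3a-conditioned medium, the ROCK inhibitor Y-27632 and the GSK3 inhibitor CHIR99021 in a medium with R-spondin, noggin and EGF (ENR). On day 3 they were moved to ENR alone. The treatments were DMSO as the vehicle, 10 µM of all-trans retinoic acid (atRA), 10 µM of its isomer 9-cis retinoic acid (9cisRA), and 5 µM of a retinoid X receptor (RXR) antagonist, called RXRi. RNA was taken before treatment (0 h, with no DMSO) and after 6 h and 24 h in each of the 4 treatments, which gives 9 groups of 4 libraries: 1 culture from each of 2 mice, with RNA purified in duplicate from 3 pooled wells. The replicate is the mouse, so n = 2 in every group. Duplicate libraries show the spread of RNA preparation, not of animals. The 0 h cultures differ from the later ones in medium, vehicle and time together, and these cannot be told apart. In such bulk samples fewer cells of a type and less RNA per cell cannot be told apart either.

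Oxidative phosphorylation takes electrons from NADH at complex I and from succinate at complex II, passes them through ubiquinone, complex III and cytochrome c to oxygen at complex IV, and uses the proton gradient so built to make ATP at complex V. Complexes I, III, IV and V are assembled from nuclear and mitochondrial gene products, whereas complex II is wholly nuclear and also serves as succinate dehydrogenase in the citric acid cycle. In the intestinal epithelium, proliferating crypt cells have been described as more glycolytic and absorptive villus cells as more reliant on mitochondrial respiration. The cell types of the crypt may differ in this, and respiration was not measured here. atRA activates retinoic acid receptors, which work as partners of retinoid X receptors, and 9cisRA binds both.

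The labelled tissue matched its markers: the 5 epithelial markers (Epcam, Cdh1, Vil1, Krt8 and Cdx2) summed to 4531 to 8243 RPKM in every library. Of the markers of cells outside the epithelium, Myh11 and Acta2 (smooth muscle) summed to 1.13 to 2.76 RPKM and Lyz2 (myeloid cells) was at 0.183 to 2.53 RPKM, and the other immune, fibroblast and endothelial markers were not analysed here. Whole reads recovered from the table came to 19640305 to 30686200 per library, and 1.3% to 1.8% of them lay on the 86 genes. All 86 passed the filter on low values (RPKM of at least 1 in at least 4 libraries), as 11361 of the 12652 genes did, and none had a value of 0 in any library.

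Before treatment the levels ran from 3.15 to 1274 RPKM (reads divided by gene length in kilobases and by library depth), and 67 of the 86 genes were in the top 10% of the table by mean RPKM. Levels set side by side between genes therefore depend on the length used for each gene. Atp5b, the catalytic beta subunit of the ATP synthase, was the highest member, at 1365, 1253, 1258 and 1222 RPKM in the 4 libraries at 0 h. Its partner in the F1 head, Atp5a1, the alpha subunit, was at 757 to 774 RPKM, and Cox6b1 and Cox4i1 of complex IV were at 714 to 831 and 691 to 755 RPKM. Median levels at 0 h were 105 RPKM in complex I, 175 in complex II, 248 in complex III, 232 in complex IV and 217 in complex V. The 8 assembly factors of complex I had a median of 15.5 RPKM, with a range from 3.62 (Ndufaf6) to 24.6 RPKM (Ndufaf2). The lowest subunit of complex I, Ndufa11, lay within that range at 18.4 RPKM. Its length was 3395 bases, where the median of the members was 752. Within complex II the order at 0 h was Sdhd (260 ± 1.77, SD over 2 mice), Sdha (183 ± 5.45), Sdhc (168 ± 10.7) and Sdhb (146 ± 4.64 RPKM). The ranges of Sdha and Sdhc came close to each other (177 to 190 and 160 to 176 RPKM). Paralogs that replace one another in other tissues were far apart: Cox7a2, the widely expressed form, stood at 246 ± 3.5 RPKM and Cox7a1, the heart and skeletal muscle form, at 4.64 ± 1.09 RPKM, and Cox6b1 stood at 745 ± 42.4 against 3.15 ± 1.21 RPKM for Cox6b2, the testis form. Of the 3 genes for the identical c subunit of the ATP synthase ring, Atp5g3 was at 645 ± 71.6 RPKM, Atp5g2 at 121 ± 7.28 and Atp5g1 at 110 ± 11.2 RPKM, the last pair within their spread.

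**Figure D1:**
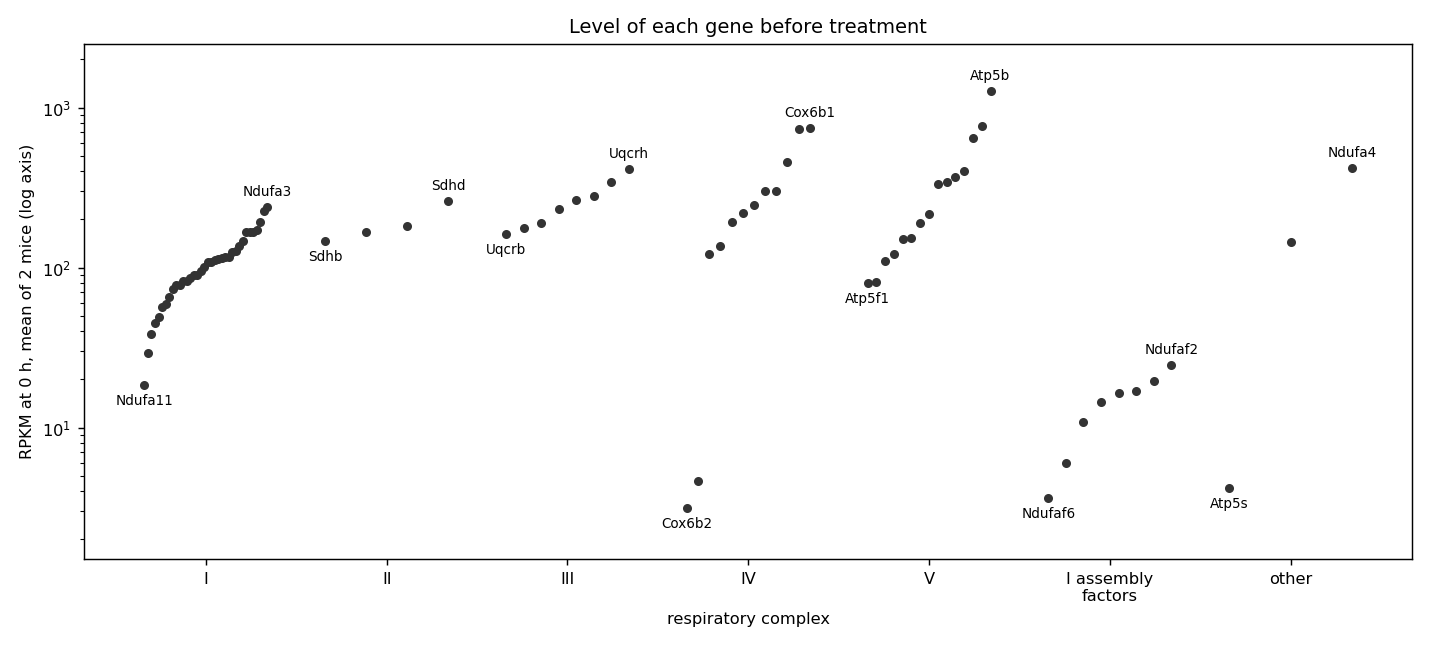
Level of each of the 86 genes at 0 h (mean RPKM of 2 mice, log axis), ordered within each complex; other stands for Ndufa4, Cox7a2l and Atp5s. The lowest and highest gene of each class are named: subunits of complexes II, III and V lie above 80 RPKM, while the assembly factors, Cox7a1, Cox6b2 and Atp5s lie below 25 RPKM.

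The members are mostly short genes. Their median length was 752 bases against 3183 over all tested genes, and 59 of the 86 were in the shortest 10% of tested genes (up to 1167 bases). The 1078 other genes of that class moved with the members between libraries. In 1 library with atRA at 6 h (mouse 1, duplicate 1), the median difference from 0 h was -0.38 on the log2 scale for the members and -0.28 for the other short genes, and in 1 library at 0 h (mouse 1, duplicate 1) it was 0.11 and 0.10. The part of gene length in the differences between libraries was not tested, and values centred within 10 bins of gene length, an alternative chosen after seeing the data, are given beside the counts they bear on.

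**Figure D2:**
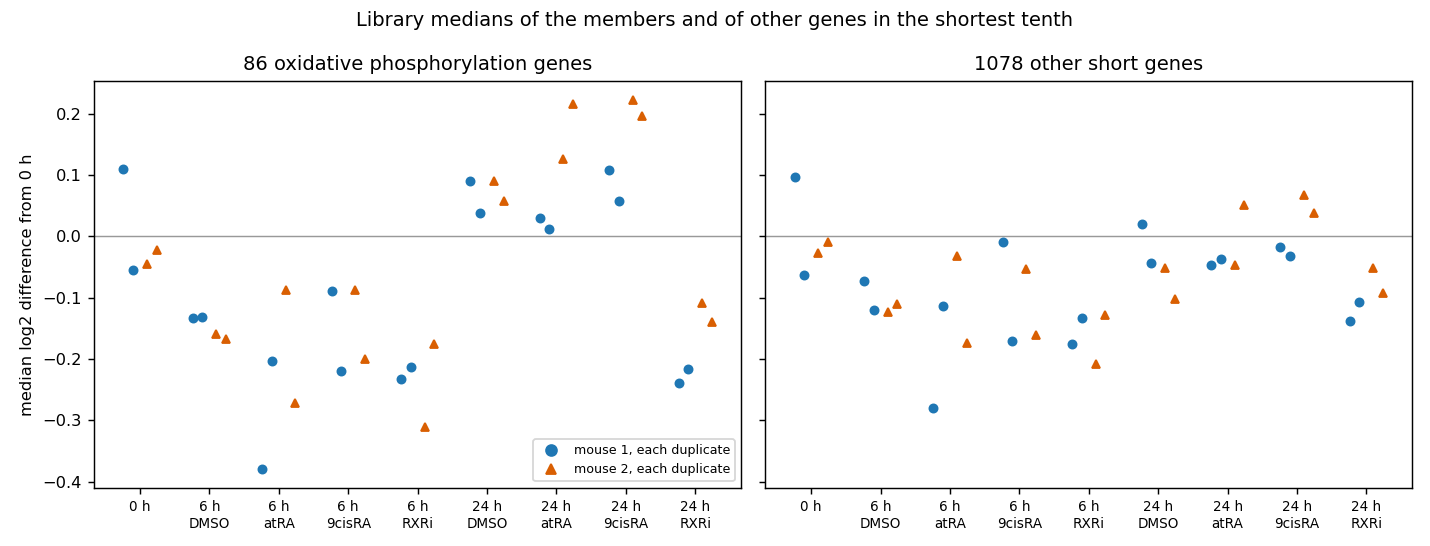
Median log2 difference from 0 h in each library, for the 86 genes (left) and for the 1078 other genes in the shortest 10% (right); each point is 1 library, circles for mouse 1 and triangles for mouse 2. The library with atRA at 6 h that lies lowest on the left (-0.38) also lies lowest on the right (-0.28), while the 24 h groups with DMSO and RXRi are farther apart on the left.

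Promoter sequence is shown for the genes on which the 24 h results turn: complex II, which changed as a whole, and Cox7a1, which changed most. RefSeq windows (GRCm38.p6) from 250 bases before to 50 after a start were found for 74 of the 86 genes, 79 windows in all, with none for Sdhc. Windows are printed 5′ to 3′ on the gene's strand, with letters of a searched motif in capitals: chr13:74350191-74350490 (minus strand) for Sdha, chr4:140961021-140961320 (plus) for Sdhb, chr9:50603800-50604099 (minus) for Sdhd and chr7:30183921-30184220 (plus) for Cox7a1.
Sdha: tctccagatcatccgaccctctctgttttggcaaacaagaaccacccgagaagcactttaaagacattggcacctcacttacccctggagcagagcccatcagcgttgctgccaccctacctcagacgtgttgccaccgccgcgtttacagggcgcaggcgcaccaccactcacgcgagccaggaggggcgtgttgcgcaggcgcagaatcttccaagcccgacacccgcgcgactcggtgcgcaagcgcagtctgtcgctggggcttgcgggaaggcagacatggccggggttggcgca
Sdhb: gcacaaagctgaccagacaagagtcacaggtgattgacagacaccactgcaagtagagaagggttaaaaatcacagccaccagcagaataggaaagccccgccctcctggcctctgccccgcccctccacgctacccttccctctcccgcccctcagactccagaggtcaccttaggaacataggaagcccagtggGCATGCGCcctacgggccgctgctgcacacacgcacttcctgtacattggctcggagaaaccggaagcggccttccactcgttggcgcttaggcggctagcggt
Sdhd: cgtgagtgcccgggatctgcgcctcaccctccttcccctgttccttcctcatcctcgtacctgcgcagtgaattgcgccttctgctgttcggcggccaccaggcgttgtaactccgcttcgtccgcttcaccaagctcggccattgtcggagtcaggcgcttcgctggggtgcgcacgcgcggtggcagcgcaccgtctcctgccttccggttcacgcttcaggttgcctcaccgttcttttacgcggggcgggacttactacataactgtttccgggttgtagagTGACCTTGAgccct
Cox7a1: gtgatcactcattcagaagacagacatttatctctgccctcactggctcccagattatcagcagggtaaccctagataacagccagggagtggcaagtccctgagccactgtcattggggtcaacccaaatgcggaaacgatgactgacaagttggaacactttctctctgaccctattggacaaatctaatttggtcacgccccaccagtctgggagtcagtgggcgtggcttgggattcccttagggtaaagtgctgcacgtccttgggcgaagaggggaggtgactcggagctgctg
In the window of Sdhb the capitals mark the letters GCGCATGC, read on the other strand, a core of the sites bound by nuclear respiratory factor NRF1. In that of Sdhd they mark TCAAGGTCA, also on the other strand, the form bound by estrogen-related receptors. Those of Sdha and Cox7a1 held none of the 5 motifs searched.

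Each motif was searched as exact letters on both strands, and none of the 5 contains another. GCGCATGC was in 15.2% of the 79 member windows and in 5.2% of the 11462 windows of other tested genes, and AAGATGGC, a core of YY1 sites, in 13.9% and 4.54%. TCAAGGTCA was in 2.53% of member windows (Sdhd and Atp5g3) and in 0.244% of the others. CCGGAAGT, a core of ETS family sites, was in 6.33% and 8.52%, and the cyclic AMP response element TGACGTCA in 5.06% and 3.07%. Over all 32851 windows of the reference the shares were 2.71%, 2.75%, 0.423%, 3.89% and 1.79% in the same order (GCGCATGC, AAGATGGC, TCAAGGTCA, CCGGAAGT, TGACGTCA). These are matches of letters within 300 bases, not sites shown to be bound.

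In vehicle cultures the members were lower at 6 h than at 0 h and higher at 24 h than at 6 h. On the scale of log2(RPKM + 0.5), the median member differed by -0.15 at 6 h against 0 h, by 0.22 at 24 h against 6 h and by 0.07 at 24 h against 0 h, where the median of all tested genes was within 0.01 of 0 each time. At 6 h 27 of 86 fell and none rose (limma, adjusted p below 0.05, as for every call below), whereas 23.4% of all tested genes were called lower and 22.3% higher. The lower members included 6 of 8 in complex III, 5 of 8 assembly factors and 11 of 36 in complex I, but 1 of 12 in complex IV and 1 of 15 in complex V. The largest fall was that of the assembly factor Ndufaf4. It read 15.3, 12.8, 15.5 and 14 RPKM at 0 h and 9.8, 10.8, 10.7 and 10.9 RPKM at 6 h, with no overlap, a log2 fold change of -0.43 ± 0.08 (SE, adjusted p = 0.000832). Uqcr11, a small subunit of complex III, fell by 0.30 ± 0.07 (adjusted p = 0.00338), a call that was lost in either mouse alone (adjusted p = 0.0529 and 0.063). Here and below, a fit of 1 mouse alone takes its spread from duplicates, not from animals. The 1078 other short genes had a median difference of -0.11 over this interval, with 279 lower and 97 higher. Stem cell markers summed to 29.3 to 34.6 RPKM at 0 h and 16.5 to 18.7 RPKM at 6 h, with 3 of 4 tested called lower, and their part was not tested. This comparison leaned on single libraries at 0 h: 15 members were called lower without mouse 1 duplicate 1, 44 without mouse 1 duplicate 2, and 14 after centring within bins of gene length.

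Between 6 h and 24 h in DMSO 54 of the 86 members rose and 1 fell, against 25.4% of all tested genes called higher and 24.5% called lower. The risers were 20 of 36 in complex I, 4 of 4 in complex II, 6 of 8 in complex III, 9 of 12 in complex IV, 9 of 15 in complex V, 3 of 8 assembly factors and all 3 genes kept apart. For 52 members all 4 libraries at 24 h lay above all 4 at 6 h, as they did for 23.2% of tested genes. Most changes were small, and 3 genes stood at 0.66 or above: Cox7a1 (2.10 ± 0.22, adjusted p = 3.46e-06), the complex I accessory subunit Ndufa6 (0.73 ± 0.07, adjusted p = 1.14e-06) and the iron-sulfur subunit Sdhb (0.66 ± 0.05, adjusted p = 2.74e-07). Ndufa6 read 130, 129, 133 and 131 RPKM at 6 h and 230, 209, 211 and 218 RPKM at 24 h. The next were Ndufv3, an accessory subunit of the arm that binds NADH (0.60 ± 0.09), Ndufa1, an accessory subunit of the membrane arm (0.54 ± 0.10), and Uqcrh, the hinge protein of complex III (0.49 ± 0.07). Other genes of the same length class moved less, with a median of 0.05 over the 1078, and centring within bins of length left 51 members higher and 1 lower. Quantile normalization, which moved the median of all genes to -0.08, left 31 higher and 1 lower.

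Cox7a1 was the member that changed most over time. Its 4 DMSO libraries at 6 h read 4.57, 4.58, 5.51 and 5.61 RPKM, and those at 24 h read 17.7, 18.3, 27.3 and 32.9 RPKM. The groups did not overlap, and at 24 h both libraries of mouse 2 lay above both of mouse 1. Its paralog Cox7a2 went from 215 to 229 RPKM at 6 h to 267 to 276 RPKM at 24 h, a log2 fold change of 0.27 ± 0.06 (adjusted p = 0.00119), so Cox7a1 remained the minor form by RPKM. Myh11 and Acta2, the smooth muscle markers in the table, summed to 1.13 to 1.70 RPKM in the DMSO libraries at 24 h and to 1.88 to 2.76 RPKM at 6 h. Cox6b2 was the 1 member that fell, from 2.30 to 4.23 RPKM at 6 h to 1.46 to 2.11 RPKM at 24 h (-0.68 ± 0.21, adjusted p = 0.0174). The call was lost in mouse 2 alone (adjusted p = 0.0985) and without DMSO mouse 2 duplicate 1 at 6 h (adjusted p = 0.0508).

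Set against 0 h, vehicle cultures at 24 h had 21 members higher and 3 lower, where 29.2% of all tested genes were called higher and 30.3% lower. All 4 complex II genes were among the higher, from 0.17 for Sdha to 0.52 ± 0.05 for Sdhb (adjusted p = 2.2e-06), and 6 of 12 in complex IV, while 2 of 8 assembly factors, Ndufaf5 and Ndufaf7, were lower. The balance of this comparison turned on scaling: quantile normalization gave 11 higher and 14 lower, and scaling to summed reads 12 higher and 11 lower. The members farthest above 0 h were Cox7a1 (2.23 ± 0.22) and Ndufa6 (0.57 ± 0.07).

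**Figure D3:**
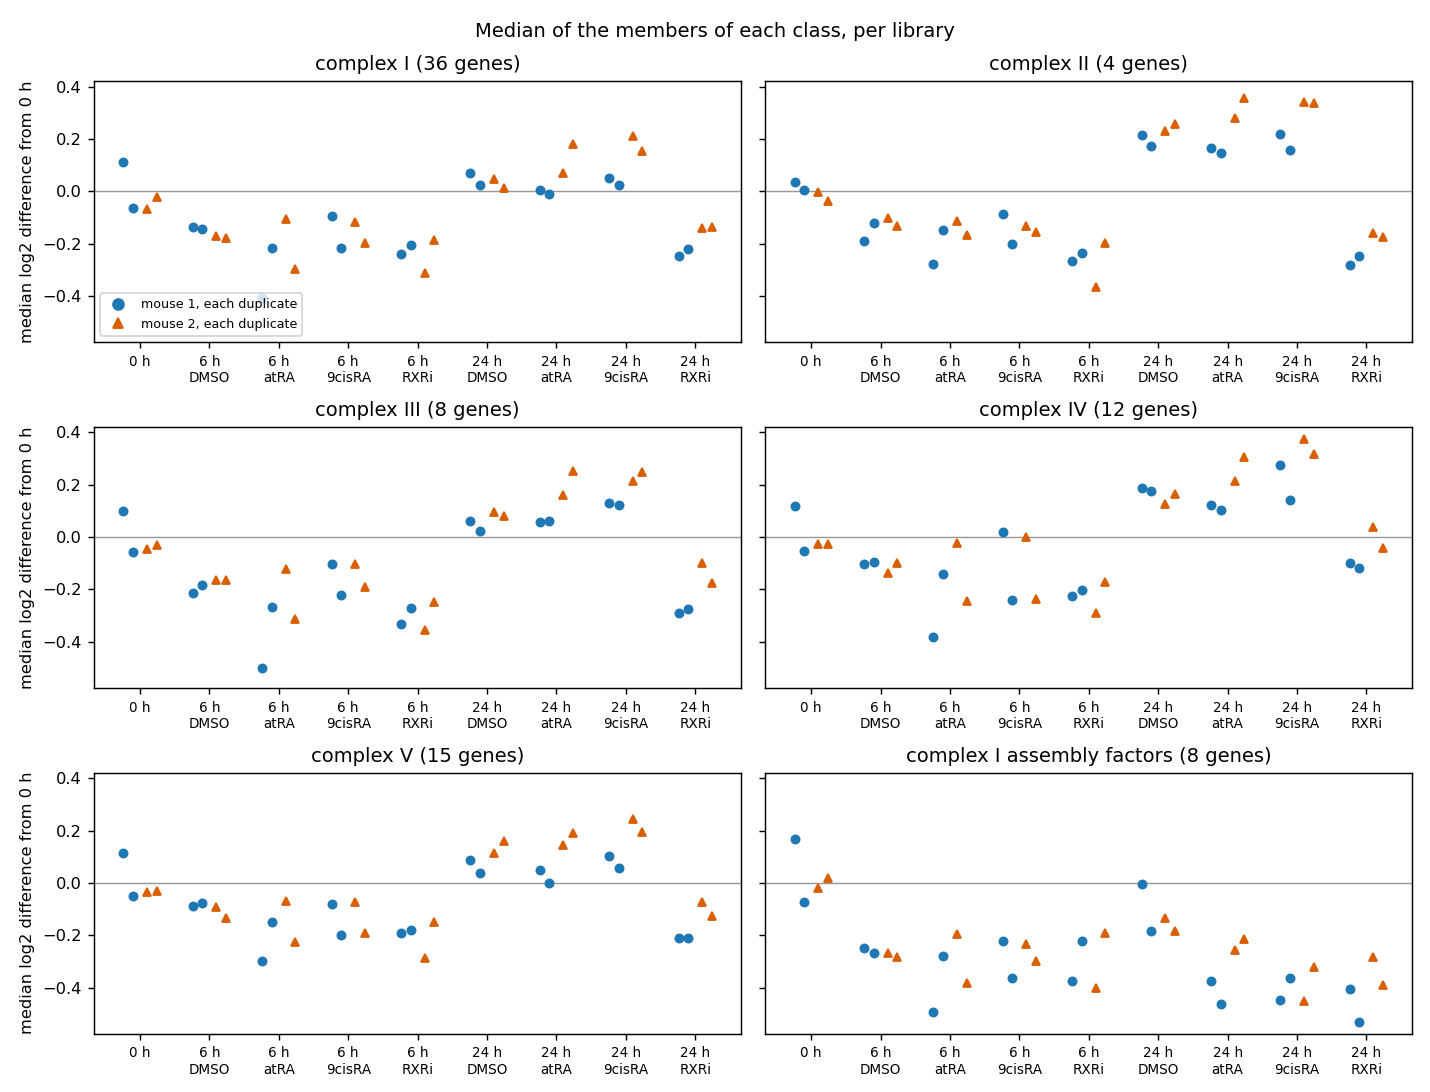
Median log2 difference from the 0 h mean over the genes of each class, 1 point per library (circles mouse 1, triangles mouse 2). Complex II lies at 0.17 to 0.26 in DMSO at 24 h and at -0.28 to -0.16 with RXRi at 24 h, and the assembly factors lie below 0 in every library after 0 h.

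Cell type markers moved over the same interval. The 9 enterocyte markers, among them Alpi, Fabp1 and Apoa4, summed to 1281 to 2224 RPKM in DMSO at 6 h and to 9198 to 14855 RPKM at 24 h. The 5 proliferation markers (Mki67, Top2a, Ccnb1, Cdk1 and Pcna) summed to 363 to 406 and 299 to 329 RPKM, and the 5 goblet cell markers to 131 to 160 and 470 to 523 RPKM. Paneth cell markers went from 45.6 to 122 RPKM to 246 to 395 RPKM (5 of 5 called higher), stem cell markers from 16.5 to 18.7 RPKM to 37.4 to 47.8 RPKM (2 of 4 tested called higher) and enteroendocrine markers from 47.3 to 60.9 RPKM to 28.3 to 33.3 RPKM (4 of 4 called lower). Their part in the change of the members was not tested.

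With the RXR antagonist the members were lower than in vehicle at 24 h: 51 of 86 fell and 1 rose, and the median member differed by -0.25, where 30.4% of all tested genes were called lower, 31.1% higher, and their median was 0.00. For 54 members all 4 RXRi libraries lay below all 4 DMSO libraries, as they did for 29.8% of tested genes. By class the count lower was 19 of 36 in complex I, 4 of 4 in complex II, 7 of 8 in complex III, 6 of 12 in complex IV, 8 of 15 in complex V, 5 of 8 assembly factors and 2 of the 3 genes kept apart. The median differences were -0.19, -0.54, -0.32, -0.23, -0.22, -0.31 and -0.16 in that order. Between 48 and 61 members were called lower under other scalings. With the libraries of 1 mouse alone 39 were lower in mouse 2 and 52 in mouse 1, where the spread is that between duplicates.

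Complex II showed the largest median difference of the classes. Its genes Sdha, Sdhc and Sdhd (2859, 1179 and 1285 bases) lay outside the shortest 10% of genes, and Sdhb (1073 bases) within it. Over all complexes the median member differed by -0.32 outside the shortest 10% and by -0.20 within it. The part of gene length in this ranking was not tested. Sdhb read 213, 198, 216 and 215 RPKM in DMSO and 127, 125, 139 and 130 RPKM with RXRi, a log2 fold change of -0.69 ± 0.05 (adjusted p = 8.5e-08), or 37.9% lower. Sdhd, a membrane anchor subunit, read 308, 288, 298 and 306 RPKM in DMSO and 188, 186, 197 and 187 RPKM with RXRi (-0.66 ± 0.06, adjusted p = 4.4e-07). For Sdha, the flavoprotein that oxidises succinate, the values were 189, 207, 209 and 221 against 146, 151, 158 and 161 RPKM (-0.42 ± 0.06, adjusted p = 3.12e-05). For Sdhc, the other anchor, they were 190, 189, 201 and 198 against 141, 144, 155 and 153 RPKM (-0.39 ± 0.07, adjusted p = 0.00025). No RXRi library reached the lowest DMSO library in any of the 4 genes. With RXRi at 24 h Sdhb, at 130 ± 6.1 RPKM, was also close to its 6 h level in DMSO (133 ± 7.75 RPKM), whereas Sdhd (189 ± 3.89) was below its own (229 ± 1.15 RPKM).

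**Figure D4:**
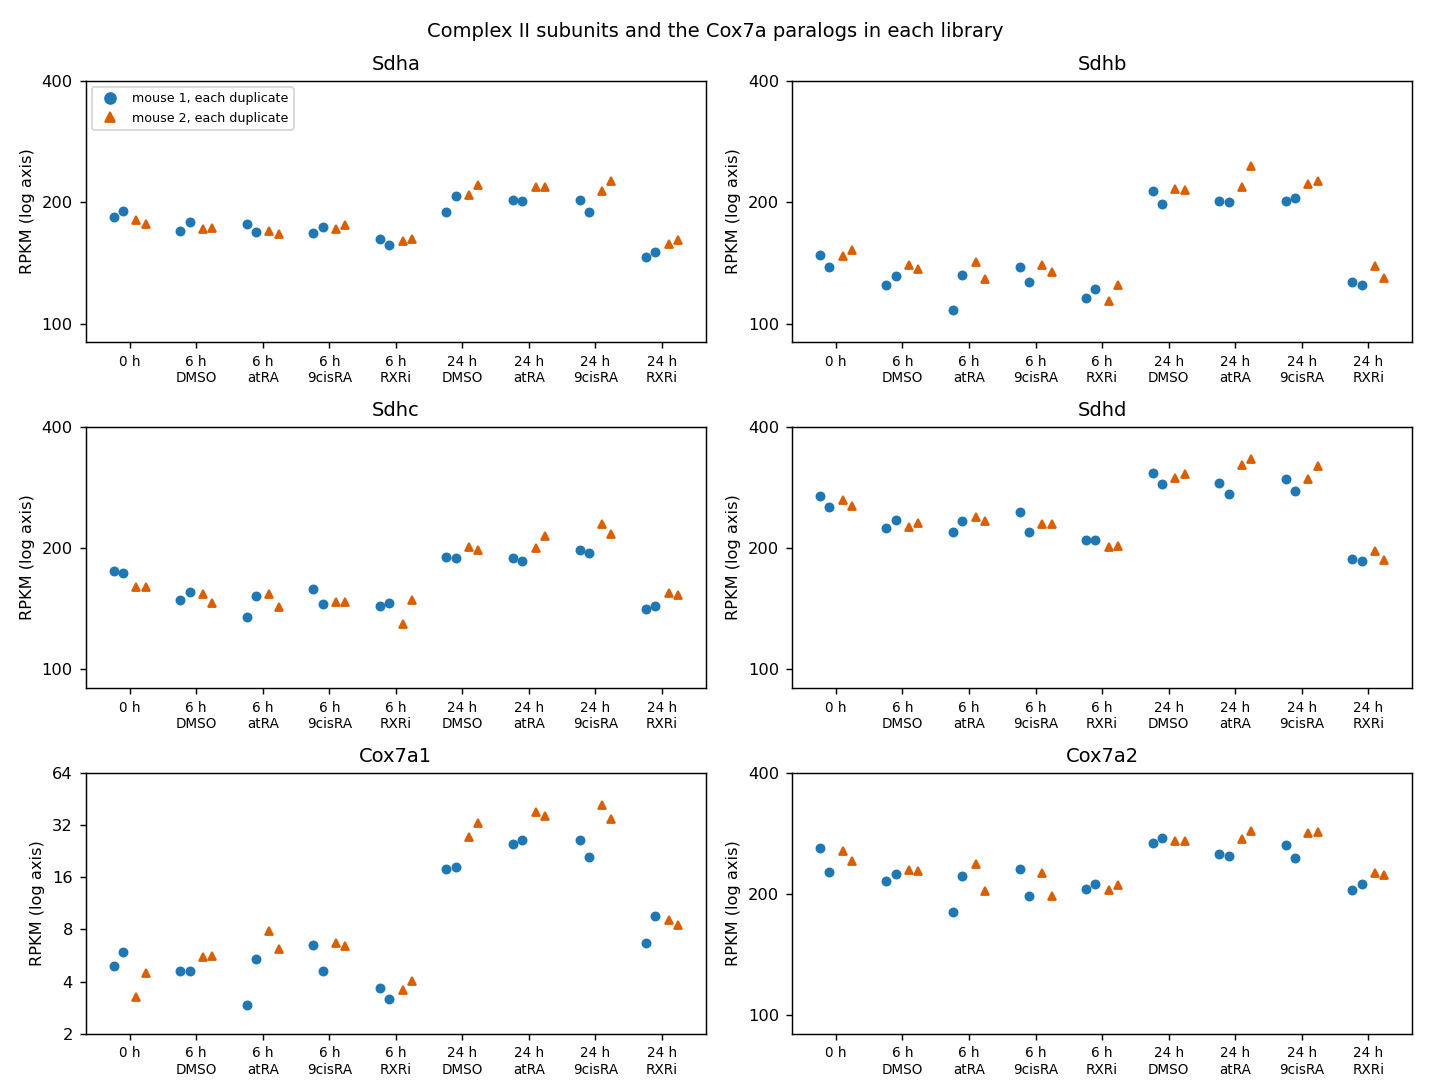
RPKM (log axis) of the 4 complex II genes and of the paralogs Cox7a1 and Cox7a2 in each of the 36 libraries, circles for mouse 1 and triangles for mouse 2. In all 6 genes the 4 libraries with RXRi at 24 h lie below those with DMSO, atRA and 9cisRA at 24 h.

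In complex I all 7 nuclear core subunits, which carry the flavin and iron-sulfur clusters, were lower with RXRi, against 12 of 29 accessory subunits (median differences -0.36 and -0.14). Ndufs1, the largest core subunit, read 48.4, 50.5, 50 and 53.7 RPKM in DMSO and 35.6, 33.7, 37.2 and 36.6 RPKM with RXRi (-0.50 ± 0.05, adjusted p = 5.8e-07). Ndufv1, which binds NADH, differed by -0.38 ± 0.07 (adjusted p = 0.000401) and Ndufs7, next to the quinone site, by -0.29 ± 0.08 (adjusted p = 0.00777). The call of Ndufs7 was lost in mouse 2 alone (adjusted p = 0.152). Among accessory subunits Ndufa5 differed most (-0.54 ± 0.08), while Ndufa6, which had risen most in vehicle, was at 202, 188, 213 and 215 RPKM with RXRi and at 230, 209, 211 and 218 RPKM in DMSO, overlapping (-0.09 ± 0.07, adjusted p = 0.278). Core subunits were longer than accessory subunits, with 3 of 7 and 22 of 29 in the shortest 10% of genes. Over all complexes 21 of the 27 members outside the shortest 10% were lower, 30 of the 59 within it, and 327 of the 1078 other short genes. Centring within bins of gene length left 49 members lower and 1 higher.

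In complex III the Rieske iron-sulfur protein Uqcrfs1 read 197, 186, 197 and 206 RPKM in DMSO and 141, 139, 152 and 138 RPKM with RXRi (-0.46 ± 0.06, adjusted p = 1.92e-05). The hinge protein Uqcrh (-0.42 ± 0.07) and the core protein Uqcrc1 (-0.40 ± 0.07) were also lower, and Uqcrq was the member of complex III that did not pass (0.16 ± 0.14). Complex IV was mixed. Cox7c (-0.45 ± 0.08), Cox7b (-0.44 ± 0.07) and Cox5a (-0.38 ± 0.07, adjusted p = 0.000348) fell, while Cox4i1, the largest nuclear subunit, differed by -0.09 ± 0.05 (adjusted p = 0.138) and Cox6a1 and Cox8a by 0.01 ± 0.10 and 0.05 ± 0.12. The sign of Cox4i1 changed under quantile normalization. In complex V the stalk subunit Atp5o, known as OSCP, read 437, 423, 447 and 461 RPKM in DMSO and 268, 281, 310 and 303 RPKM with RXRi (-0.61 ± 0.07, adjusted p = 7.87e-06). The head subunits Atp5a1 and Atp5b differed by -0.39 ± 0.05 (adjusted p = 7.83e-06) and -0.22 ± 0.05 (adjusted p = 0.00222), and Atp5c1, the central stalk gamma subunit, by -0.40 ± 0.05. Adjusted p for Atp5b was 0.0724 under quantile normalization and 0.0654 with 2 groups in the fit.

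Cox7a1 had the largest single difference with RXRi. Its libraries read 6.67, 9.51, 9.1 and 8.44 RPKM against 17.7, 18.3, 27.3 and 32.9 RPKM in DMSO, a log2 fold change of -1.42 ± 0.22 (adjusted p = 7.23e-05), which was -1.13 in mouse 1 and -1.72 in mouse 2. Cox7a2 was lower by less (-0.33 ± 0.06, adjusted p = 0.000187). Assembly factors of complex I went both ways: Ndufaf6 (-0.62 ± 0.06) and Ndufaf4 (-0.60 ± 0.08) fell furthest, and Ndufaf3 was the 1 member that rose, from 16.7, 15.9, 15.3 and 14.5 RPKM to 18.3, 17.4, 21.9 and 21.9 RPKM (0.34 ± 0.11, adjusted p = 0.0163). The call of Ndufaf3 was lost in mouse 1 alone (adjusted p = 0.273).

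**Figure D5:**
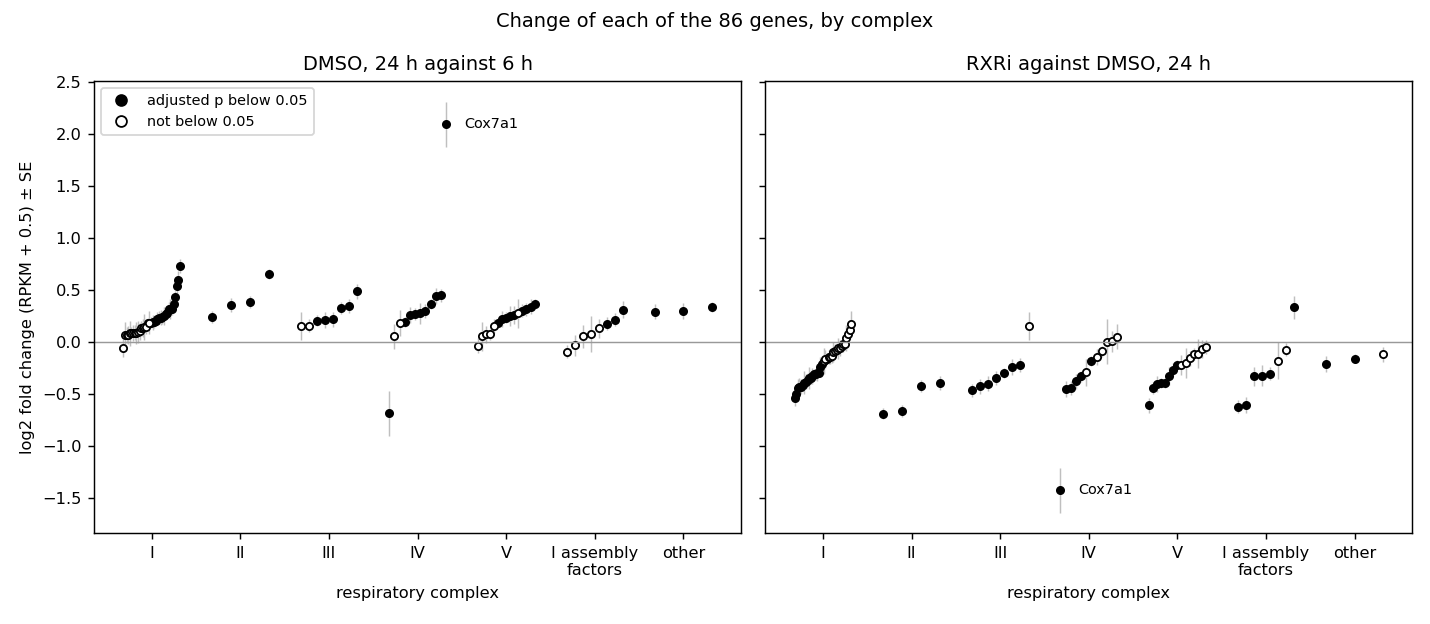
Log2 fold change ± SE (from limma, on log2 of RPKM + 0.5) of each of the 86 genes by complex, for DMSO at 24 h against 6 h (left) and RXRi against DMSO at 24 h (right); filled points have an adjusted p below 0.05. Of the genes, 54 rose on the left and 51 fell on the right, with Cox7a1 farthest from 0 on both sides; both panels use the DMSO libraries at 24 h.

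The DMSO libraries at 24 h enter both of these comparisons, so their values are set side by side and not correlated. Enterocyte markers summed to 3363 to 5257 RPKM with RXRi at 24 h and to 9198 to 14855 RPKM in DMSO, proliferation markers to 208 to 220 and 299 to 329 RPKM, and the tuft cell markers Trpm5 and Avil to 15.1 to 17.1 and 2.34 to 2.70 RPKM. The goblet cell markers summed to 518 to 803 against 470 to 523 RPKM, the Paneth cell markers to 62.7 to 215 against 246 to 395 RPKM and the stem cell markers to 15.3 to 20.9 against 37.4 to 47.8 RPKM. Of the tested markers, 7 of 8 for enterocytes were called lower and 1 higher, with a median of -4.05 (range -8.48 to 0.55). The enterocyte sum lay above the 1440 to 2043 RPKM of 0 h, whereas the library medians of these markers were -1.72 to -0.85 from 0 h. Called lower were also 5 of 5 for proliferation, 5 of 5 for Paneth cells and 3 of 4 for stem cells, and 2 of 5 for goblet cells were called higher. The part of these cell type markers in the lower values of the members was not tested.

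Other genes of respiration were read from lists that overlap none of the members. Of 19 enzymes of the citric acid cycle 17 were lower with RXRi and 1 higher (median -0.31), among them Suclg1 (-0.54 ± 0.05) and Sucla2 (-0.59 ± 0.06), subunits of succinyl-CoA ligase. Of 17 genes for cytochrome c, ubiquinone synthesis and other electron carriers 12 were lower and 2 higher (median -0.38); Pdss1, which makes the ubiquinone side chain, differed by -1.38 ± 0.07 and Coq8a by -1.47 ± 0.13. Of 39 further assembly factors 25 were lower and 3 higher (median -0.28), with Cox16 at -0.71 ± 0.07. Of 78 mitochondrial ribosomal proteins 35 were lower and 2 higher (median -0.14). Among 14 transcriptional regulators of mitochondrial genes 7 were lower and none higher (median -0.14), where 30.4% of all tested genes were called lower. The lower ones included the mitochondrial DNA factor Tfam (-0.60 ± 0.07), the coactivator Ppargc1b (-0.79 ± 0.10) and the nuclear receptor Esrra (-0.46 ± 0.08). Lower regulators were not particular to RXRi. With atRA at 24 h 7 of the 14 were lower and none higher (median -0.21), against 18.6% of all tested genes called lower. With 9cisRA at 24 h 8 were lower and 1 higher (median -0.24), against 23.5% called lower. Between 6 h and 24 h in DMSO 12 of the 19 citric acid cycle enzymes rose and none fell (median 0.17), whereas 10 of the 78 mitochondrial ribosomal proteins rose and 5 fell (median 0.03).

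After 6 h with the antagonist few members were called. Ndufaf4 (-0.28 ± 0.08, adjusted p = 0.0224), Ndufaf6 (-0.26 ± 0.06, adjusted p = 0.00832) and Sdhb (-0.16 ± 0.05, adjusted p = 0.0416) fell and none rose, where 14.6% of all tested genes were called lower and 10.6% higher. The median member differed by -0.10, with 80 of 86 below 0, and 71 were lower in both mice against 4 higher. By limma 12 had an unadjusted p below 0.05, all of them lower. The median of the other short genes was -0.04 (115 lower and 42 higher of 1078). Enterocyte markers summed to 900 to 1430 RPKM with RXRi at 6 h and to 1281 to 2224 RPKM in DMSO, with 6 of 8 tested called lower, and their part was not tested. The count was 9 without DMSO mouse 1 duplicate 1 and 1 without DMSO mouse 1 duplicate 2. The Sdhb libraries of the 2 groups overlapped, and its call was lost under quantile normalization (adjusted p = 0.112), in mouse 1 alone (0.434) and without any of 4 single libraries, DMSO mouse 1 duplicate 2 and mouse 2 duplicate 1 and RXRi mouse 1 duplicate 1 and mouse 2 duplicate 1 (0.0585 to 0.0863). That of Ndufaf4 was lost without DMSO mouse 1 duplicate 2 (0.0543) or RXRi mouse 1 duplicate 1 (0.0677). The effect of RXRi was larger at 24 h than at 6 h by the test of the difference itself: 27 members had a lower effect at 24 h and none a higher one, against 16.5% and 18.6% of all tested genes. These 27 held all 4 complex II genes, with differences of -0.53 ± 0.07 for Sdhb (adjusted p = 0.000104), -0.50 ± 0.08 for Sdhd (adjusted p = 0.000414), -0.30 ± 0.08 for Sdha and -0.30 ± 0.10 for Sdhc, and 4 of the 7 core subunits of complex I. For Cox7a1 the difference was -0.99 ± 0.31 (adjusted p = 0.0229), which was not called in mouse 1 alone (adjusted p = 0.0671) or without RXRi mouse 1 duplicate 1 at 24 h (adjusted p = 0.0516).

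Few subunits were called with the retinoic acid isomers. At 6 h none of the 86 passed with atRA by limma or voom, where 2.79% of all tested genes were called higher and 1.87% lower, and 11 had an unadjusted p below 0.05, 10 of them lower. The median member differed by -0.09, with 75 of 86 below 0, and 51 were lower in both mice against 1 higher. The median of the other short genes was -0.06. Without atRA mouse 2 duplicate 1 3 were called lower, and without DMSO mouse 2 duplicate 2 1. With 9cisRA at 6 h 1 member rose, Ndufb2, an accessory subunit of complex I (0.31 ± 0.07, adjusted p = 0.0233), where 5.01% of all tested genes were called higher and 3.03% lower. Its libraries read 73.3, 54, 78.5 and 54.9 RPKM against 49.6, 59.2, 52.7 and 46.9 RPKM in DMSO. These overlapped, and in both mice duplicate 1 was the higher 9cisRA library. The call was lost without 9cisRA mouse 1 duplicate 1 (adjusted p = 0.233), without 9cisRA mouse 2 duplicate 1 (adjusted p = 0.212) or without DMSO mouse 1 duplicate 1 (adjusted p = 0.0895).

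At 24 h 5 of the 8 assembly factors of complex I, Ndufaf1, Ndufaf2, Ndufaf4, Ndufaf6 and Ndufaf7, fell by 0.21 to 0.34 with atRA, where 18.6% of all tested genes were called lower, and by 0.25 to 0.54 with 9cisRA, where 23.5% were. The other 3 did not pass. With 9cisRA Ndufaf8 differed by 0.41 ± 0.18 (adjusted p = 0.0701) and Ndufaf3 by 0.23 ± 0.11 (adjusted p = 0.0938), each with all 4 libraries above DMSO, and Ndufaf5 by -0.17 ± 0.10, and with atRA these 3 differed by -0.07, 0.08 and -0.10. Both comparisons use the DMSO libraries at 24 h. Of 39 further assembly factors 2 were lower and 1 higher with atRA, and 9 lower and 4 higher with 9cisRA. Of 78 mitochondrial ribosomal proteins 19 were lower and none higher with atRA, and 28 lower and 1 higher with 9cisRA. Ndufaf4 read 13.8, 13.5, 13.3 and 12.3 RPKM in DMSO, 11, 9.43, 10.7 and 10.3 RPKM with atRA and 9.04, 9.6, 7.18 and 10.3 RPKM with 9cisRA, without overlap of DMSO and either isomer (adjusted p = 0.00504 and 0.000143). Ndufaf7 read 8.94, 8.41, 8.15 and 8.12 RPKM in DMSO, 7.06, 7.03, 6.67 and 7.02 RPKM with atRA and 7.44, 6.46, 7.15 and 6.89 RPKM with 9cisRA, also without overlap. Under the other scalings these stayed lower, with the exception that Ndufaf6 with atRA no longer passed under quantile normalization (adjusted p = 0.0665). In mouse 2 alone the calls of Ndufaf1, Ndufaf2, Ndufaf4 and Ndufaf6 with atRA were lost (adjusted p = 0.569, 0.124, 0.0975 and 0.492), as were those of Ndufaf6 and Ndufaf7 with 9cisRA (0.102 and 0.0576). With atRA, leaving out DMSO mouse 1 duplicate 1 also ended the calls of Ndufaf2 and Ndufaf6 (0.111 and 0.0582), DMSO mouse 2 duplicate 2 those of Ndufaf2 and Ndufaf6 (0.051 and 0.0507), DMSO mouse 2 duplicate 1 that of Ndufaf1 (0.0583) and atRA mouse 1 duplicate 1 that of Ndufaf2 (0.0694).

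Over all members atRA at 24 h gave 2 higher, Ndufa6 (0.19 ± 0.07) and Ndufa13 (0.17 ± 0.06), and 6 lower, the last being Ndufab1, the mitochondrial acyl carrier protein (-0.21 ± 0.07), where 19.4% of all tested genes were called higher and 18.6% lower. The calls of Ndufa6 and Ndufa13 were lost in each mouse alone and under both other scalings, and that of Ndufab1 in mouse 2 alone (adjusted p = 0.641), without DMSO mouse 2 duplicate 1 (0.228) and without atRA mouse 2 duplicate 1 (0.251). Scaling to summed reads gave none higher and 13 lower, and quantile normalization none higher and 10 lower. With 9cisRA at 24 h 12 members were higher and 6 lower, against 24.4% and 23.5% of all tested genes. The higher ones were led by the complex IV subunit Cox8a, which read 396, 320, 412 and 347 RPKM against 257, 265, 269 and 271 RPKM in DMSO (0.47 ± 0.12, adjusted p = 0.00678). This split turned with the scaling, to 1 higher and 21 lower under quantile normalization and 2 higher and 26 lower under scaling to summed reads, which moved the median of all genes to -0.12. Cox8a remained higher in both (0.31 and 0.34). Complex II did not pass with either isomer, and the 95% intervals for Sdhb ran from -0.08 to 0.15 with atRA and from -0.09 to 0.13 with 9cisRA. Enterocyte markers summed to 17923 to 25407 RPKM with atRA and to 21915 to 28973 RPKM with 9cisRA at 24 h, above the 9198 to 14855 RPKM of DMSO. Gene by gene they were mixed. Of 8 tested, 4 were called higher and 1 lower with atRA (median 0.13), and 5 higher and 1 lower with 9cisRA (median 0.61). Stem cell markers summed to 18.1 to 26.5 and 17.3 to 21.5 RPKM with atRA and 9cisRA against 37.4 to 47.8 RPKM in DMSO, and 4 of 4 tested were called lower with each isomer. Proliferation markers summed to 250 to 257 and 222 to 252 against 299 to 329 RPKM, and 4 of 5 were called lower with each. The part of these markers in the values of the members was not tested.

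The compounds atRA and 9cisRA are cis-trans isomers, unlike at the double bond at carbon 9, and both were given at 10 µM. They were compared directly at both times, 2 comparisons in all. At 24 h no member passed by limma or voom, where 0.467% of all tested genes were called in either direction, and 5 had an unadjusted p below 0.05. The difference of 9cisRA from atRA was 0.34 for Cox8a (95% interval 0.08 to 0.60, adjusted p = 0.285), -0.02 for Sdhb (-0.13 to 0.10) and -0.04 for Cox7a1 (-0.50 to 0.43), so a difference of the size seen with RXRi lies outside the intervals of Sdhb and Cox7a1. At 6 h 2 members were higher with 9cisRA, Ndufb2 (0.45 ± 0.07, adjusted p = 0.0113) and Ndufs7 (0.38 ± 0.08, adjusted p = 0.0389), against 1.72% of all tested genes in either direction. Both calls rested on single libraries: none was made without atRA mouse 1 duplicate 1, atRA mouse 2 duplicate 2 or 9cisRA mouse 1 duplicate 1, 1 without 9cisRA mouse 2 duplicate 1, 5 without either 9cisRA duplicate 2, and 12 without atRA mouse 2 duplicate 1. The effects of the isomers were also compared between the times. For atRA 1 member, Atp5s, had a lower effect at 24 h (-0.34 ± 0.10, adjusted p = 0.0407; 0.0751 by voom), where 17.1% of all tested genes were called in either direction, and for 9cisRA none did by limma or voom, against 10.1% of all tested genes called higher and 7.90% lower, with 3 members at an unadjusted p below 0.05.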

How the data were processed

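Poly(A) RNA of 36 organoid libraries was sequenced, and the deposited values are RPKM per gene, which the authors computed before deposit. Per the submitters' processing notes, bcl2fastq 2.17, STAR 2.5.2b and the build mm10 were used; the counting tool is not given in the sources used here. Low RPKM values fell on whole-read steps, and reads were recovered for 100% of genes (tolerance 0.05 reads), 19640305 to 30686200 per library.

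Values were taken as log2(RPKM + 0.5), duplicates were averaged, and the 18 mouse means of the 9 groups were fitted in 1 limma model (limma 3.58.1, R 4.3.3) with a variance trend and the mouse as a block, because each animal gave a culture to every group. Pairing by mouse was checked from mouse 1 minus mouse 2 over genes: its correlation between groups had a median of 0.441 (range 0.0372 to 0.662). Duplicates of a mouse correlated at 0.994 to 0.998, and none were identical. In all, 14 comparisons were tested, two-sided, with Benjamini-Hochberg adjustment over 11361 genes and calls at an adjusted p below 0.05. Confidence limits were set at 95%.

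The members, gene lists and named genes were chosen with earlier results of these data known. Named genes are, per comparison, up to 6 called members at either end with the same sign in both mice, a panel of core subunits and paralogs, and up to 4 genes per list by smallest p. The other members named (among them Sdhc, Sdhd, Ndufa5, Uqcrq and Atp5c1) were chosen after their values were seen. Alternatives changed the pseudocount, filter, scaling, block, samples in the fit and libraries. Voom on recovered reads, which called 54 members for RXRi at 24 h, and centring within 10 bins of gene length were chosen after seeing the data. Promoter windows are those of RefSeq on GRCm38.p6.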

Additional observations from a re-analysis of the deposited data

Results flagged for a closer look

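The effect of RXRi on several members differed between 24 h and 6 h by the test of the difference in limma. The differences were -0.53 for Sdhb, -0.50 for Sdhd, -0.47 for Atp5o, -0.42 for Ndufs1, -0.37 for Uqcrfs1 and -0.99 for Cox7a1 (adjusted p = 0.000104, 0.000414, 0.00317, 0.000233, 0.00434 and 0.0229). For atRA the effect on Atp5s differed by -0.34 (adjusted p = 0.0407), a call that was lost in mouse 1 alone and in mouse 2 alone (adjusted p = 0.286 and 0.0826), by voom (0.0751), and without any of 5 single libraries (0.0509 to 0.147): DMSO mouse 1 duplicate 1 or mouse 2 duplicate 1 at either time, or atRA mouse 1 duplicate 2 at 24 h.

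Groups of 4 libraries were searched for 1 that stood far from the other 3. With 4 independent values chance gives about 1 in 20, or 12.6 of 252 groups. That rate need not hold here, where the 4 are duplicates of 2 mice and a gene also enters the median of its class. Such a library was found in 11 of the 252 groups. At 0 h mouse 1 duplicate 1 was highest in 5 of these: Atp5o at 393 RPKM (the others 357 to 360), Ndufb2 at 79.4 RPKM (60.1 to 61.2), and the medians of complex III at 0.10, of complex IV at 0.12 and of complex V at 0.11 on the log2 scale. In DMSO at 6 h Ndufaf4 was lowest at 9.8 RPKM in mouse 1 duplicate 1 (10.7 to 10.9), and the complex IV median was lowest at -0.14 in mouse 2 duplicate 1. With 9cisRA at 6 h Sdhc was highest at 158 RPKM in mouse 1 duplicate 1 and Cox7a1 lowest at 4.62 RPKM in mouse 1 duplicate 2. With 9cisRA at 24 h Ndufb2 was highest at 75 RPKM in mouse 1 duplicate 1 (59.3 to 60). With RXRi at 24 h Ndufaf6 was highest at 2.23 RPKM in mouse 2 duplicate 1 (1.87 to 1.88).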

How the results depend on the processing

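At 24 h, 39 to 61 members were lower with RXRi and 0 to 2 higher, and in DMSO between 6 h and 24 h 31 to 54 were higher, under all the alternatives run. Other counts of members called, in either direction, moved by over 1.5 times. Quantile normalization gave 32 for DMSO 24 h against 6 h, and 0 and 1 for the time difference of the atRA and 9cisRA effects. Scaling to summed reads gave 13 for atRA and 28 for 9cisRA at 24 h, 46 for DMSO 6 h against 0 h, and 2 and 6 for those time differences. A filter at a mean of 5 RPKM gave 1 for the 9cisRA time difference. Without the replicate block for the mouse, the counts were 4 for atRA at 24 h, 1 for the isomers at 6 h, 13 for DMSO 6 h against 0 h, and 0 and 17 for the atRA and RXRi time differences. With 36 separate libraries, which treats duplicates as animals, they were 2, 0 and 10 for atRA, 9cisRA and RXRi at 6 h, 5 for the isomers at 6 h, and 6 and 1 for the atRA and 9cisRA time differences. With the compared groups alone they were 6 for 9cisRA and 18 for RXRi at 6 h, 13 for atRA at 24 h, 15 and 3 for the isomers at 6 h and 24 h, 60 for DMSO 6 h against 0 h, and 0 for the atRA time difference. Without mouse 1 they were 7 for RXRi at 6 h, 4 for atRA at 24 h, 0 for the isomers at 6 h, 10 for DMSO 6 h against 0 h, and 0, 2 and 13 for the atRA, 9cisRA and RXRi time differences. Without mouse 2 they were 8, 2 and 8 for atRA, 9cisRA and RXRi at 6 h, 1 for the isomers at 6 h, and 7 and 2 for the atRA and 9cisRA time differences. Voom gave 2 for 9cisRA at 6 h and 0 for the atRA time difference, and centring by gene length gave 2 for 9cisRA at 6 h, 14 for DMSO 6 h against 0 h and 2 for the 9cisRA time difference. Leaving out 1 library at a time gave 0 to 3, 0 to 2 and 1 to 9 for atRA, 9cisRA and RXRi at 6 h, 6 to 8, 14 to 22 and 50 to 54 at 24 h, and 0 to 12 and 0 to 0 for the isomers at 6 h and 24 h. It gave 15 to 44, 20 to 33 and 50 to 55 for DMSO 6 h against 0 h, 24 h against 0 h and 24 h against 6 h, and 0 to 8, 0 to 2 and 20 to 33 for the atRA, 9cisRA and RXRi time differences. Quantile normalization turned the sign of Cox4i1 with RXRi at 24 h (0.10) and, for DMSO 24 h against 6 h, of Ndufv1 (-0.03), Cox4i1 (-0.04), Atp5a1 (-0.06) and Atp5b (-0.08). Of 1874 values of single genes under alternatives, 1726 kept their direction and side of the threshold, 141 lost the call, 2 gained it and 5 turned. Where no construction of the alternative shows it, the cause was not tested. With 2 mice a group, the 95% interval of a member's log2 difference reached a median of 0.16 to either side.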
